A study of Mus musculus with 6 samples.

Results

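The mRNAs of 7 proteins that bind N6-methyladenosine (m6A) were followed here: Ythdf1, Ythdf2, Ythdf3, Ythdc1, Ythdc2, Igf2bp2 and Igf2bp3. These 7 genes were chosen by name, as the listed m6A readers, from 55263 annotated genes, with earlier results of these data known. All 7 were among the 17621 genes with enough counts to be tested. They have 40 annotated transcripts, of which 25 were tested. RNA was sequenced from 6 libraries of C57BL/6J mouse CD4+ T cells, 3 labelled wild type (WT) and 3 labelled Wtap knockout (Wtap KO). WTAP is the adaptor that brings the m6A-writing enzymes METTL3 and METTL14 to nuclear speckles. Every library, WT included, carries the same protocol: 4-hydroxytamoxifen at 1 µM for 24 h to deplete Wtap, then anti-CD3 at 1 µg/mL with anti-CD28 at 2.5 µg/mL in Th1 conditions (IL-12 at 10 ng/mL, anti-IL-4 at 10 µg/mL) for 40 to 48 h, then IL-2 at 200 IU/mL and harvest on day 4. Whether WT cells carried Cre, and which exons of Wtap were targeted, is not given in the sources used here. No label ties a library to an animal of its own, and p-values therefore reflect only how far these libraries spread. That spread may be technical, except that Wtap KO 3 differed from Wtap KO 1 and Wtap KO 2 in sex-linked genes, as given below.

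m6A acts largely through proteins that recognise it. The YTH domain holds the methylated base in an aromatic cage: YTHDF1, YTHDF2 and YTHDF3 are close cytoplasmic relatives linked to the decay and translation of methylated mRNA, YTHDC1 is nuclear and linked to splicing, export and chromatin, and YTHDC2 is an RNA helicase best known from the germ line. The IGF2BP proteins bind RNA through KH domains, are mostly fetal or tumour proteins, and are described as stabilising their targets. m6A itself was not measured in these libraries.

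The libraries held 32363139 to 44039467 estimated counts. Wtap itself stood at 114, 106 and 94.3 CPM (reads scaled to a common library size) in WT 1 to 3 and at 114, 120 and 119 CPM in Wtap KO 1 to 3, so the gene total was not lower (log2 fold change 0.16 ± 0.10 SE, edgeR adjusted p = 0.371). The transcript Wtap-205 held 51.3% ± 4.19 of the gene's counts in WT and 10.0% ± 1.10 in Wtap KO (SD, n = 3; limma adjusted p = 0.00793 for its share). The transcripts with the longer coding sequence (1188 bases, against 453 in Wtap-205) went the other way: Wtap-201 rose from 17.6 ± 1.28 to 38.3 ± 2.94 TPM (transcript level per length, scaled within each library; edgeR log2 1.08 ± 0.12 SE, adjusted p = 0.0296), and Wtap-203 was at 0, 0.236 and 0 TPM in WT and at 11.4, 8.30 and 9.29 TPM in Wtap KO, without a call (adjusted p = 0.0615). The make-up of Wtap RNA thus differed between the groups while its total was not lower, and every direction below rests on the labels. Over all genes tested, edgeR called 5.74% higher and 3.48% lower. The 10 CD4 T cell markers were all tested and summed to 5905 to 6318 TPM in WT and 4864 to 5465 TPM in Wtap KO, with 2 called lower. Of 10 dendritic cell markers 8 were tested and 3 were called higher, their sum going from 12.2 to 38.9 TPM in WT to 46.9 to 63.3 TPM in Wtap KO. The sum of the 2 CD8 T cell markers was 7.18 to 7.79 TPM in WT and 11.4 to 13.9 TPM in Wtap KO, with 1 of 2 tested called higher. That of the 7 B cell markers was 2.22 to 3.78 TPM in WT and 3.87 to 5.57 TPM in Wtap KO, with 1 of 5 tested called higher. Sums for NK cells, macrophages and monocytes (1 of 3 tested called higher), granulocytes (S100a9 at 0 in every library) and erythroid cells and platelets overlapped between the groups. Wtap KO 3 had 63.3 CPM of the Y-linked gene Kdm5d and 3.81 CPM of Xist, while the other 5 libraries had 2.43 to 3.53 CPM of Kdm5d and 1979 to 4447 CPM of Xist. By these 2 genes Wtap KO 3 had the expression of a male and the other 5 libraries that of a female. The Wtap KO libraries thus did not all come from the same animal. The part of these differences in the results below was not tested.

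Ythdf2, Ythdf1 and Ythdc1 rose in Wtap KO, none of the 7 readers fell, and 4 were not called. In edgeR's quasi-likelihood test with Benjamini-Hochberg adjustment over all genes and a threshold of 0.05, 5.74% of genes tested were called higher and 3.48% were called lower. One reader was lower at an unadjusted p under 0.05 in edgeR and 1 was called lower by DESeq2, Igf2bp3 in both cases. DESeq2 called 1212 of all 17621 genes tested lower. The median log2 fold change of the 7 readers was 0.02, against -0.00051 over all genes tested. For 3 readers every Wtap KO library lay above every WT library in CPM, a pattern seen in 17.2% of genes tested, and for 2 readers (Igf2bp2 and Igf2bp3) every Wtap KO library lay below, as in 15.5% of genes tested. In bulk RNA, fewer cells that express a gene and less of its RNA per cell cannot be told apart.

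**Figure D1:**
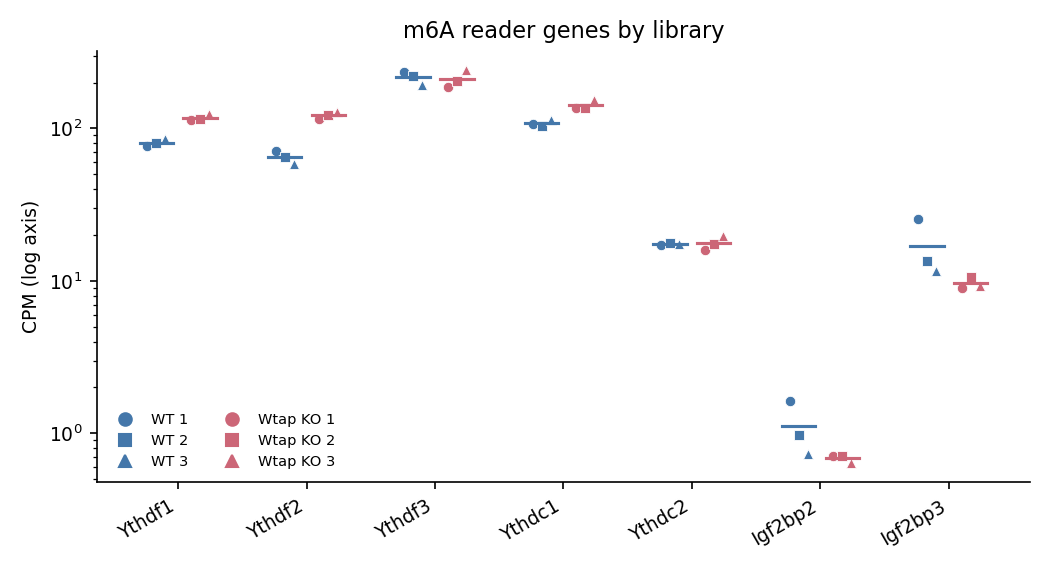
CPM of each reader gene in each library, on a log axis. Symbols mark the library number, blue is WT, red is Wtap KO and the bars are group means of 3 libraries; Ythdf1, Ythdf2 and Ythdc1 separate upwards, while Ythdf3 and Ythdc2 overlap.

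Among the cytoplasmic readers, Ythdf2 (chr4:132184912-132212303, GRCm38, minus strand), the member best known for sending methylated mRNA to deadenylation, was at 70.8, 64.5 and 58.6 CPM in WT and 115.6, 122.8 and 127.5 CPM in Wtap KO. All Wtap KO libraries lay well above all WT libraries. The rise was 1.89-fold (log2 0.92 ± 0.11 SE, edgeR adjusted p = 0.00277), and it was called in each of 17 alternative settings, where it ranged from 0.85 to 1.01.

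Ythdf1 (chr2:180904377-180920949, minus strand), first described as promoting translation of methylated mRNA, was at 76.3, 80.7 and 85.7 CPM in WT and 113, 116 and 124 CPM in Wtap KO. The groups again did not overlap. The rise was 1.46-fold (log2 0.54 ± 0.10 SE, edgeR adjusted p = 0.0141). It lost its call without WT 2 (adjusted p = 0.0629), without Wtap KO 1 (0.0530) and without Wtap KO 2 (0.0763), with log2 values of 0.54, 0.58 and 0.55.

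Ythdf3 (chr3:16183212-16217037, plus strand), which is thought to act with the other two, was at 236, 222 and 193 CPM in WT and 188, 206 and 240 CPM in Wtap KO. The ranges covered almost the same span. Its log2 fold change was -0.04, with a 95% interval of -0.32 to 0.25 (edgeR adjusted p = 0.898), and its sign turned in 7 of 17 alternatives without a call.

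The 3 paralogs therefore stood in different proportions in the 2 groups. On the per-length TPM scale, the summed level of the YTHDF genes was 99.9, 97.0 and 89.2 TPM in WT and 130, 128 and 143 TPM in Wtap KO. Ythdf2 made up 22.8%, 22.9% and 25.4% of that sum in WT and 36.4%, 35.2% and 31.0% in Wtap KO, with no overlap. Ythdf3 made up 52.2%, 50.0% and 44.3% in WT and 34.2%, 35.8% and 39.0% in Wtap KO, while the share of Ythdf1 overlapped between the groups. The log2 ratio of Ythdf2 to Ythdf3 in CPM was -1.74 ± 0.03 in WT and -0.79 ± 0.11 in Wtap KO (SD, n = 3). The ratios of Ythdf2 to Ythdf1 and of Ythdf1 to Ythdf3 were also higher in every Wtap KO library. Each of the 3 ratios gave p = 0.1 in a two-sided exact permutation test, before and after adjustment over the 3, the smallest p that 3 against 3 libraries allow.

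**Figure D2:**
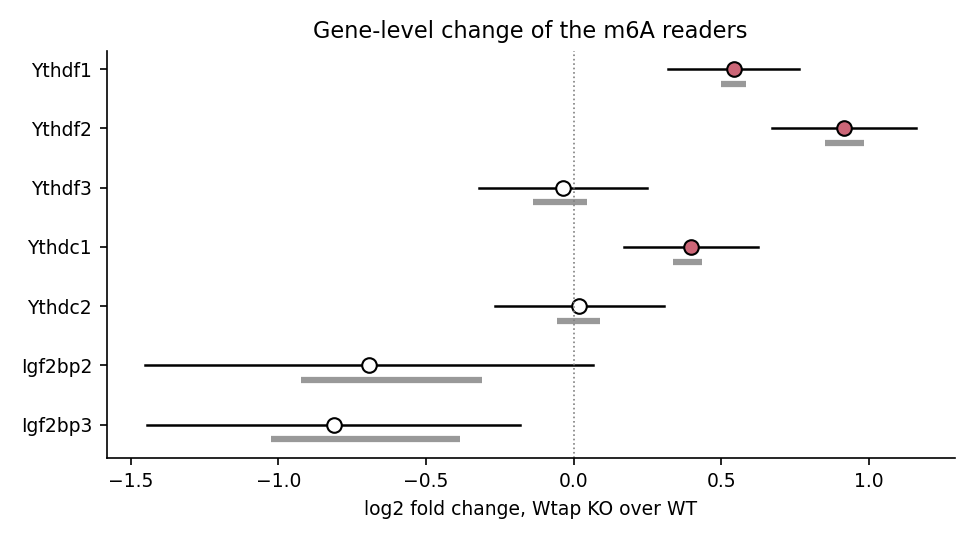
Log2 fold change of each reader gene, Wtap KO over WT, with its 95% interval from edgeR (black line) and the range of the estimate when each library was left out in turn (grey bar). Filled points passed the threshold, with Ythdf2 at 0.92 the farthest from 0 among them. The intervals of Ythdf3, Ythdc2 and Igf2bp2 span 0.

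Ythdc1 (chr5:86804221-86836659, plus strand), the nuclear reader, was at 107, 104 and 114 CPM in WT and 137, 136 and 155 CPM in Wtap KO. The groups did not overlap in CPM. Its gene total rose 1.32-fold (log2 0.40 ± 0.10 SE, edgeR adjusted p = 0.0419), close to the threshold. The call was lost in 10 of 17 alternatives, with adjusted p up to 0.310 for length-scaled counts, and among the libraries left out it was lost without WT 2 (0.147) and without any 1 of the Wtap KO libraries (0.118, 0.134 and 0.113 for Wtap KO 1, 2 and 3). In TPM the groups overlapped, at 46.5, 53.0 and 60.9 TPM in WT and 67.8, 60.1 and 69.4 TPM in Wtap KO.

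The transcripts of Ythdc1 did not move together, and they differ at exon 11. In the coding transcript Ythdc1-203 exon 11 (chr5:86827955-86828121, GRCm38) has 167 bases and is joined to exon 12. In Ythdc1-208, which the annotation types as a target of nonsense-mediated decay, the same exon reads on for 1358 bases of the intron, to position 86829479, before it is joined to exon 12. The 2 sequences below, from the GENCODE M21 transcripts, are shown because they carry that difference. Both start with the last 30 bases of exon 11, and capitals mark exon 12 in Ythdc1-203 and, in Ythdc1-208, the skipped splice donor, the first GGACT and the stop codon.
Ythdc1-203: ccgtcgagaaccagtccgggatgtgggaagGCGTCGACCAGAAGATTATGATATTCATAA
Ythdc1-208: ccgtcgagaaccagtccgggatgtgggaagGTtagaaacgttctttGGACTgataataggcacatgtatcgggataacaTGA
The first runs over chr5:86828092-86830583 with the intron left out, and the second over chr5:86828092-86828173. The stop is reached 49 bases into the intron. Ythdc1-208 has 545 codons against 728 in Ythdc1-203, but not all of that gap need come from this stop. The 54 bases of exon 6 in Ythdc1-203 are not an exon of Ythdc1-208, so the 2 transcripts differ at more than exon 11.

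Ythdc1-203 was at 9.81, 8.91 and 10.7 TPM in WT and 23.9, 22.1 and 22.2 TPM in Wtap KO. Ythdc1-208 was at 6.18, 7.40 and 7.31 TPM in WT and 3.19, 3.57 and 3.39 TPM in Wtap KO. The coding transcript was thus higher, and the transcript with the extended exon lower, in every Wtap KO library. Ythdc1-203 rose (log2 1.17 ± 0.12 SE, edgeR adjusted p = 0.0279 over all transcripts) and Ythdc1-208 fell (log2 -1.09 ± 0.14 SE, adjusted p = 0.0365). They were the only 1 transcript higher and 1 lower among the 25 tested of the readers, where 0.501% of all transcripts tested were called higher and 0.219% lower. Both calls were lost whenever any 1 library was left out, with adjusted p from 0.0617 to 0.179 for Ythdc1-203 and from 0.0651 to 0.182 for Ythdc1-208, while the log2 values stayed between 1.09 and 1.24 and between -1.16 and -1.03.

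As shares of the gene's counts, Ythdc1-208 went from 28.1% ± 2.87 to 10.1% ± 1.27 and Ythdc1-203 from 29.4% ± 1.89 to 50.2% ± 5.46 (SD, n = 3). The shares of neither overlapped between the groups. Neither was called for usage, a transcript set against all others of the same gene: the log2 change was -1.81 ± 0.22 SE for Ythdc1-208 (limma adjusted p = 0.0617) and 1.28 ± 0.24 SE for Ythdc1-203 (adjusted p = 0.198). Of 25 reader transcripts tested for usage 0 were called, against 0.386% of all transcripts. Ythdc1-208 passed in 2 of 10 alternatives, with adjusted p = 0.0458 in edgeR with the gene total as offset and 0.04998 in limma with a pseudocount of 5.

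The other transcripts of Ythdc1 gave less clear values. Ythdc1-201, a coding transcript with 24 more bases in exon 14, was at 4.00, 1.01 and 0.448 TPM in WT and 4.83, 5.98 and 12.8 TPM in Wtap KO, and was not called (log2 2.06 ± 0.84 SE, edgeR adjusted p = 0.344). Ythdc1-207, which keeps the whole intron after exon 11, was at 3.70, 3.51 and 3.42 TPM and at 3.08, 2.50 and 3.74 TPM, with overlap. Ythdc1-205, a non-coding transcript of 593 bases whose first exon lies inside the extension, was at 21.3, 29.8 and 38.0 TPM and at 30.8, 24.6 and 26.4 TPM, also with overlap. Because Ythdc1-205, Ythdc1-206, Ythdc1-207 and Ythdc1-208 share bases of this intron, reads there were split between them by estimate, and the error of that split is not in the deposited tables.

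**Figure D3:**
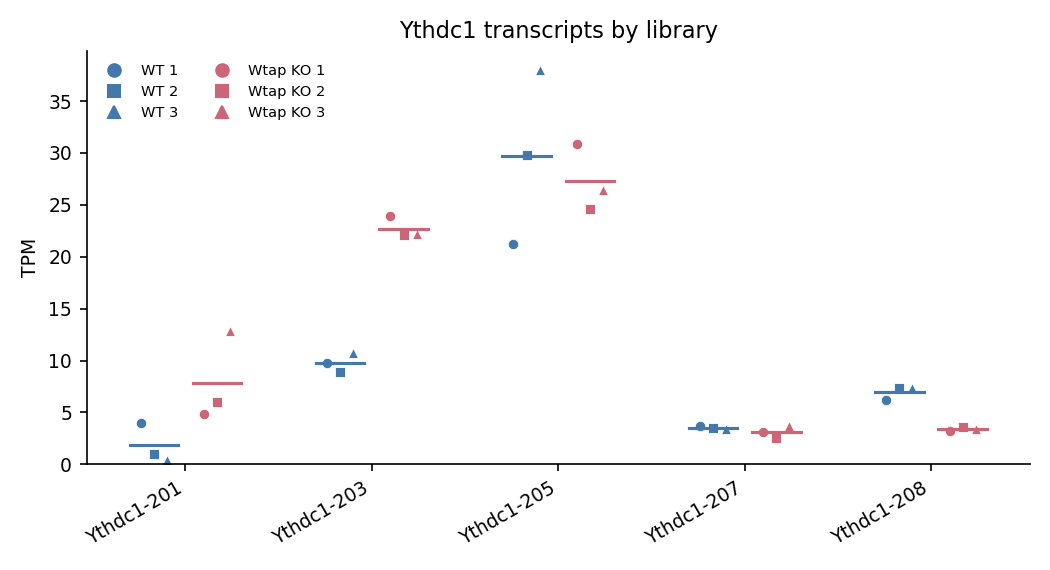
TPM of the 5 Ythdc1 transcripts with a mean of at least 1 TPM in a group, by library, with group means as bars (blue WT, red Wtap KO). Ythdc1-203 is above 22 TPM in every Wtap KO library and below 11 TPM in every WT library, Ythdc1-208 runs the other way, and Ythdc1-205 overlaps.

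A fit that sums each gene's transcripts by annotated type was added after the opposite movement of the Ythdc1 transcripts had been seen, so it is a description of that pattern with more counts and not a separate line of support. Coding transcripts of Ythdc1 were at 43.4, 31.4 and 36.7 CPM in WT and 87.2, 89.7 and 103 CPM in Wtap KO. They rose 2.51-fold (log2 1.33 ± 0.14 SE, edgeR adjusted p = 0.00488), in each of 10 alternatives too. The nonsense-mediated decay type was at 26.9, 31.8 and 32.5 CPM in WT and 13.2, 15.6 and 13.97 CPM in Wtap KO, and fell (log2 -1.09 ± 0.14 SE, adjusted p = 0.00817), a call lost without Wtap KO 1 (adjusted p = 0.0597). The remaining types of Ythdc1 were not called (log2 -0.22 ± 0.13 SE, adjusted p = 0.382). Over all gene-by-type sums, 2.63% were called higher and 1.34% lower.

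The same transcripts were also grouped, after their opposite movement had been seen, by what happens after exon 11. Transcripts with the intron removed (Ythdc1-201, Ythdc1-202 and Ythdc1-203) summed to 13.8, 9.92 and 11.1 TPM in WT and 28.7, 28.1 and 35.0 TPM in Wtap KO. Ythdc1-202 was at 0 in every library. The ratio of removed to extended forms was 2.23, 1.34 and 1.52 in WT and 9.003, 7.87 and 10.3 in Wtap KO. With Ythdc1-205 counted as extended, which was tried later, it was 0.503, 0.267 and 0.246 in WT and 0.844, 0.997 and 1.17 in Wtap KO. Its group means then differed 2.97-fold in place of 5.34-fold, still without overlap. The extended form counted this way was at 27.5, 37.2 and 45.3 TPM in WT and 34.0, 28.2 and 29.8 TPM in Wtap KO. These levels overlapped between the groups, so the lower level of the extended form did not hold with Ythdc1-205 included. In that count only the removed forms stayed apart. Without Ythdc1-205, removed forms made up 52.3% ± 5.46 of the 3 forms in WT and 82.5% ± 0.54 in Wtap KO, the extended form 31.7% ± 4.96 and 9.20% ± 1.203, and the form with the whole intron 16.0% ± 0.69 and 8.33% ± 0.88 (SD, n = 3). None of these shares overlapped between the groups; they are a description of transcripts already seen to differ. In TPM, the form with the whole intron overlapped, at 3.54 ± 0.14 in WT and 3.11 ± 0.62 in Wtap KO.

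The extension holds 9 copies of GGACT, a sequence in which m6A is often found, read on the transcript strand. It was the only motif searched, and the extension was examined after Ythdc1-208 had been seen to be lower. The remaining 2988 bases of Ythdc1-208 hold 0 copies, and the 3269 bases of Ythdc1-203 hold 2. Of 23803 windows of the same length from the most abundant coding transcript of each tested gene, 75.0% hold at least 1 copy and 5 (0.0210%) hold at least as many as the extension. Those windows are exonic and the extension is intronic sequence in the coding transcripts, so the shares describe density only. A match is no evidence that the base was methylated. In the 3′UTRs of the readers' leading coding transcripts, GGACT occurs 3 times in Ythdf2 (2012 bases), once in each of Igf2bp2 and Igf2bp3, and not in Ythdf1, Ythdf3, Ythdc1 or Ythdc2. Of 11337 such 3′UTRs of any length 60.6% hold it. Among those close in length to each reader's own, the share ran from 54.5% for Ythdc1 to 91.1% for Ythdf3, and was 81.6% for Ythdf2.

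**Figure D4:**
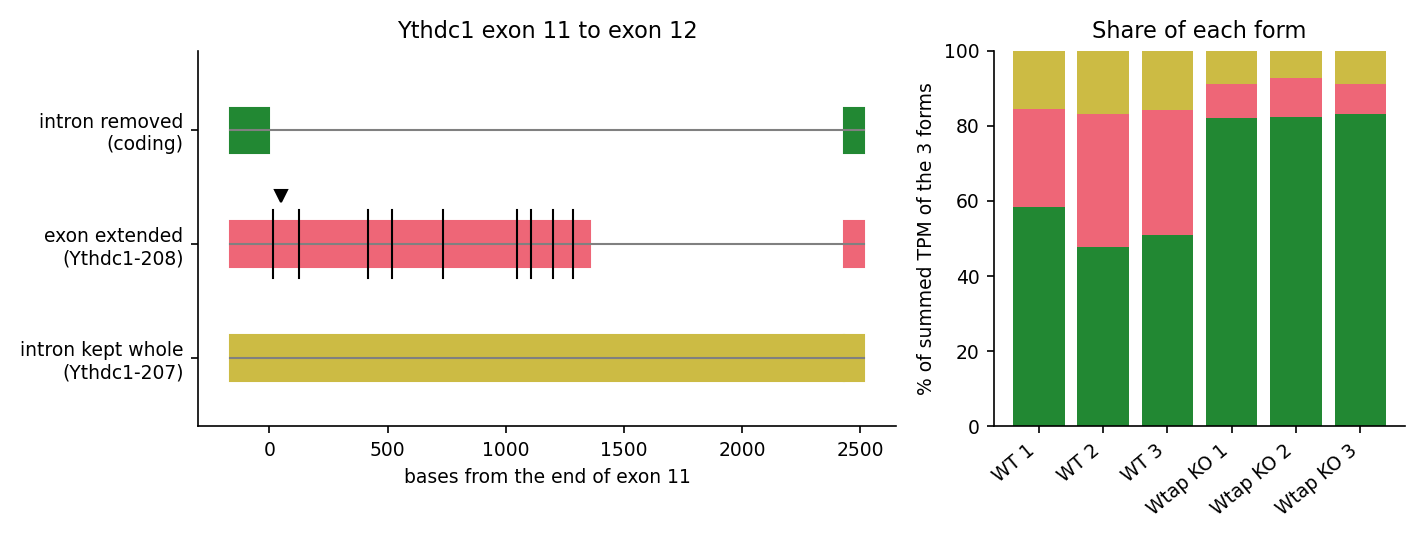
Left, the 3 forms of Ythdc1 between exons 11 and 12 in bases from the end of exon 11, with exons as boxes, GGACT copies in the extension as black lines and the stop codon of Ythdc1-208 as a triangle. Right, the percent of the summed TPM of the 3 forms in each library, in the same colours: removal of the intron (green) makes up 47.6% to 58.3% in WT and 82.1% to 83.1% in Wtap KO.

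Ythdc2 (chr18:44827746-44889724, plus strand), the helicase, was at 17.1, 17.7 and 17.6 CPM in WT and 16.1, 17.5 and 19.6 CPM in Wtap KO. The Wtap KO range enclosed the WT range. The log2 fold change was 0.02, with a 95% interval of -0.27 to 0.31 (edgeR adjusted p = 0.945). Its coding transcript Ythdc2-201 and its nonsense-mediated decay transcript Ythdc2-203 held 48.1% and 50.5% of its counts in WT and 44.3% and 53.0% in Wtap KO, and both shares overlapped.

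Igf2bp3 (chr6:49085223-49214957, minus strand) was at 25.6, 13.5 and 11.6 CPM in WT and 8.94, 10.6 and 9.27 CPM in Wtap KO. The groups did not overlap in CPM, but WT 1 stood apart from the other WT libraries, and in TPM the groups overlapped. The log2 fold change was -0.81 ± 0.28 SE (edgeR adjusted p = 0.104). It was -0.38 without WT 1, and the gene was called without WT 3 (-1.02, adjusted p = 0.0365) and in DESeq2 (-0.82, adjusted p = 0.0288). Igf2bp3 shares 1529 exon bases with Malsu1 on the opposite strand, and the strand setting of the counting is not given in the sources used here, so reads there may belong to either gene; Malsu1 had a log2 fold change of -0.17 ± 0.16 SE (adjusted p = 0.565).

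Igf2bp2 (chr16:22059009-22163299, minus strand) was scarce, at 1.63, 0.969 and 0.736 CPM in WT and 0.708, 0.713 and 0.642 CPM in Wtap KO. Every Wtap KO library was below every WT library in CPM, WT 3 by a small margin. In TPM the groups overlapped, with WT 3 (0.669 TPM) below all Wtap KO libraries (0.717, 1.13 and 0.933 TPM). The log2 fold change was -0.69 ± 0.33 SE (edgeR adjusted p = 0.228), and -0.31 without WT 1. Its one transcript with a mean of at least 1 TPM, the non-coding Igf2bp2-211, had too few counts to be tested.

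By level per length, Ythdc1 and Ythdf3 led in WT with overlapping ranges, at 53.5 ± 7.25 and 46.7 ± 6.51 TPM (SD, n = 3). Ythdf1 followed at 26.1 ± 1.06 TPM and Ythdf2 at 22.6 ± 0.28 TPM, without overlap. Igf2bp3 (5.03 ± 2.06 TPM) and Ythdc2 (3.52 ± 0.13 TPM) could not be ordered, and Igf2bp2 was lowest at 1.49 ± 0.76 TPM. In Wtap KO Ythdc1 led at 65.8 ± 4.99 TPM, followed by Ythdf3 (48.6 ± 6.18 TPM) and Ythdf2 (45.5 ± 1.54 TPM), whose ranges overlapped, and then by Ythdf1 (39.3 ± 3.03 TPM). Ythdf2 was thus below Ythdf1 in all 3 WT libraries and above it in all 3 Wtap KO libraries. The place of Ythdc1 leans on the short Ythdc1-205, which carried 38.1% to 62.3% of its gene TPM.

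For the other readers no single transcript was called. The 4 transcripts of Ythdf2 had log2 fold changes of 0.83 for the full coding Ythdf2-203, 1.10 for Ythdf2-202, which keeps the first intron, 0.92 for Ythdf2-201, which skips the long coding exon, and 1.21 for Ythdf2-204, with edgeR adjusted p from 0.0784 to 0.554. Their shares overlapped: Ythdf2-203 held 65.4% ± 10.1 of the counts in WT and 62.0% ± 5.15 in Wtap KO (SD, n = 3). In the added sums by type, both the coding transcripts of Ythdf2 (log2 0.84 ± 0.17 SE, edgeR adjusted p = 0.0364) and its other transcripts (log2 1.10 ± 0.19 SE, adjusted p = 0.0248) rose, though the first was called in 1 and the second in 3 of the 6 fits that left a library out. Ythdf1-201 held 99.6% of the counts of Ythdf1 in WT and 99.7% in Wtap KO, and had a log2 fold change of 0.55 ± 0.09 SE (adjusted p = 0.0624). The 3 transcripts of Ythdf3 had log2 fold changes of -0.27, -0.02 and 0.49 for Ythdf3-201, Ythdf3-202 and Ythdf3-203, with adjusted p from 0.494 to 0.983. Igf2bp3-201, its main coding transcript, held 88.1% ± 2.61 of the counts in WT and 79.3% ± 2.10 in Wtap KO, without overlap and without a call for usage (limma adjusted p = 0.367).

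Proteins that work with the readers mostly gave no call. Of 16 tested m6A writers and erasers 0 were called in either direction by edgeR, while 2 were higher and 1 lower at an unadjusted p under 0.05 and DESeq2 called 1 higher; the most abundant in TPM was Trmt112 (log2 -0.31 ± 0.13 SE, adjusted p = 0.176). Among 29 tested partners of YTHDF proteins, the decapping activator Ddx6 fell (log2 -0.36 ± 0.09 SE, adjusted p = 0.0412) and 28 were not called by edgeR, including the most abundant in TPM, the poly(A)-binding protein gene Pabpc1 (log2 -0.11 ± 0.09 SE). DESeq2 called 1 higher and 2 lower in this list, and 2 were higher and 4 lower at an unadjusted edgeR p under 0.05. In CPM 9 of the 29 lay wholly below WT and 4 wholly above, against 15.5% and 17.2% of all genes tested. The list's median was -0.10. Of all 17621 genes tested, edgeR called 5.74% higher and 3.48% lower, and DESeq2 called 1365 higher and 1212 lower. For an unadjusted p under 0.05 the share of all genes was not taken, so the list counts at that p cannot be set against it.

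Among 18 tested partners of YTHDC1 and YTHDC2, the export cofactor Nxt1 went from 21.1, 20.2 and 24.1 CPM in WT to 56.1, 62.0 and 64.2 CPM in Wtap KO. The histone methyltransferase gene Setdb1 went from 53.2, 51.0 and 58.9 CPM to 111, 102 and 125 CPM. Both rose clear of the WT range, by log2 1.48 ± 0.12 SE (edgeR adjusted p = 0.00109) and 1.05 ± 0.12 SE (adjusted p = 0.00216). The other 16 were not called, with a list median of -0.10. Of all genes tested, edgeR called 5.74% higher. The most abundant in TPM, the splicing factor gene Srsf3, was not called (log2 -0.31 ± 0.20 SE, adjusted p = 0.365).

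Of 16 tested partners and targets of IGF2BP proteins, the cyclin gene Ccnd2 rose (log2 0.62 ± 0.09 SE, edgeR adjusted p = 0.00586). The other 15 were not called, with a median of -0.07 and Actb, the most abundant in TPM, at 0.12 ± 0.12 SE. Of all genes tested, edgeR called 5.74% higher and 3.48% lower. Of 16 other m6A readers tested 14 were not called, with a median of -0.04 and Eif3h, the most abundant in TPM, at -0.05 ± 0.11 SE. DESeq2 also called 1 of the IGF2BP list higher and 0 lower, and 1 higher and 1 lower of the other readers. Over all 17621 genes tested DESeq2 called 1365 higher and 1212 lower. Rbmx fell (log2 -0.91 ± 0.11 SE, adjusted p = 0.00307) and its relative Rbmxl1 rose (log2 0.53 ± 0.11 SE, adjusted p = 0.0205). The 2 genes are similar in sequence, so the split of reads between them is uncertain.

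Genes with a course most like each reader over the 6 libraries were sought by Pearson r of log2(CPM + 1), among 8342 genes of at least 10 mean CPM. They were Ipmk and Lpar2 for Ythdf1, Tmem167 and Ifnar1 for Ythdf2, and Vps37a and Snw1 for Ythdf3. For Ythdc1 they were Fli1 and Btbd7, for Ythdc2 Glipr1 and Man2a1, for Igf2bp2 Gbe1 and Poc5, and for Igf2bp3 Commd1 and Apoo. The values of r ran from 0.962 for Man2a1 to 0.998 for Ipmk. They describe 6 points that share the group difference and, for both Igf2bp genes, a high value in WT 1: Gbe1 was at 98.6 CPM there and at 16.3 to 33.1 CPM elsewhere.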

How the data were processed

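RNA was sequenced from 3 WT and 3 Wtap KO libraries, grouped by title. The authors deposited estimated counts and TPM values per transcript; per the submitters' processing notes, kallisto 0.44.0, DESeq2 and GRCm38 (mm10) were used. The sources used here give neither the annotation release nor the strand setting. Of 142647 transcripts, 99.2% matched GENCODE M21 by identifier; 1123 did not and were left out. Expected counts were summed per gene, rounded and tested with edgeR 4.0.16 (R 4.3.3, robust quasi-likelihood, TMM, filterByExpr); an SE is the log2 fold change over the root of F. Transcripts were tested likewise. Usage was tested with limma 3.58.1 on log ratios with a pseudocount of 0.5. All p-values were adjusted over all features tested. The fits were tested on simulated data. Named genes were the 7 readers, their transcripts with a group mean of at least 1 TPM or a call, called and most abundant genes of 5 lists, the 2 most similar genes per reader, and Wtap. The members and lists were chosen with earlier results of these data known. Alternatives were DESeq2 1.42.0, other scalings, filters and units, length and GC offsets, a replicate block and leaving out each library; the GC offset and the fits by transcript type were added after seeing the data. Depth limits Igf2bp2 most, with 27.0 to 59.2 estimated counts per library.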

Additional observations from a re-analysis of the deposited data

How the results depend on the processing

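The rise of Ythdf2 at gene level and that of the coding transcripts of Ythdc1 kept their direction and call in every alternative run. Of 53 single values for the readers, 24 kept direction and call throughout, 8 lost a call and 6 gained one in some alternative, and 15 turned sign in some; the cause was not tested. Calls over all features moved by more than 1.5 times as follows. Genes: 1626, against 2577 in DESeq2, 1059 with the replicate block and 361 to 2279 with 1 library left out (565 without WT 2, 397, 361 and 703 without Wtap KO 1, 2 and 3). Transcripts: 338, against 150 with at least 10 mean counts in each group, 3184 in DESeq2, 0 with the block and 0 to 17 with a library left out. Usage: 151, against 82 with the gene total as offset, 0 with the block and 97 to 205 with a library left out (97 without Wtap KO 1). Sums by transcript type: 1053, against 2669 in DESeq2, 248 with the block and 123 to 1259 with a library left out. The share of gene calls that were higher was 62.2%, against 74.1% with library totals only and 73.9% and 73.3% in limma on log2(TPM + 1) and log2(TPM + 0.1), and 57.3% with the length offset, 53.0% in DESeq2 and 52.5% with the GC offset. Deviations from the group means correlated at r of -0.10, 0.05 and 0.14 between WT and Wtap KO libraries with the same number. Between those with different numbers r ran from -0.20 to 0.15. No label tells whether the numbers pair the samples, and these values cannot decide it. With the block the Ythdc1 gene was at 0.40 (adjusted p = 0.0899) and both Ythdc1-203 and Ythdc1-208 had adjusted p = 0.300 in edgeR. None of the values that turned sign was called on either side. The log2 value of the Ythdc2 gene became -0.033 with an offset on gene length and -0.058 without Wtap KO 3. That of the Ythdf3 gene became 0.023 with library totals only, 0.00096 with length-scaled counts, 0.057 and 0.058 in limma on log2(TPM + 1) and log2(TPM + 0.1), 0.053 with the GC offset, 0.027 without WT 1 and 0.046 without Wtap KO 1, with a range over left-out libraries of -0.14 to 0.046. The Ythdf3-202 transcript became 0.080 in limma, 0.039 with the block, 0.16 and 0.086 without WT 1 and WT 2, and 0.025 and 0.011 without Wtap KO 1 and 3 (left-out range -0.29 to 0.16). The Ythdc1-205 transcript became 0.082 without WT 3 (-0.38 to 0.082). Usage, with left-out ranges, became 0.065 for Ythdf3-201 without WT 3 (-0.80 to 0.065), -0.32 and -0.078 for Ythdf3-202 without WT 3 and Wtap KO 2 (-0.32 to 0.34), 0.14 for Ythdf2-203 (-0.49 to 0.14), -0.20 for Ythdf2-204 (-0.20 to 1.2465) and -0.13 for Ythdf2-202 (-0.13 to 0.49) without WT 1, and 0.0015 in diffSpliceDGE and 0.27 without WT 3 or Wtap KO 3 for Ythdf2-201 (-0.25 to 0.27). Of the sums by type, Ythdf3 coding became 0.064 in limma, 0.034 without WT 1 and 0.045 without Wtap KO 1 (-0.14 to 0.045), Ythdc2 nonsense-mediated decay -0.0024 without Wtap KO 3, Igf2bp3 other -0.055 without WT 3 (-0.055 to 0.23), Igf2bp2 coding 0.91 and 0.46 without WT 2 and Wtap KO 2 (-0.96 to 0.91), and Igf2bp2 other 0.15 without WT 1 (-1.80 to 0.15).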
